A study of Mus musculus with 6 samples.

Results

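The replication-dependent histone genes encode the H1, H2A, H2B, H3 and H4 proteins that package newly made DNA. They were taken as the genes whose name in the deposited expression table starts with Hist1h, Hist2h, Hist3h or Hist4h. This gave 70 genes of 56359 rows: 6 for linker histone H1, 20 for H2A, 19 for H2B, 12 for H3 and 13 for H4. RNA was measured by RNA sequencing in C57BL/6 mouse embryos at embryonic day 12. The groups were 3 wild type samples and 3 Tmem216-/- samples, which are null for Tmem216, a gene whose membrane protein sits at the base of the cilium. The labels name the source as embryo and do not say whether the samples came from separate embryos. The p-values therefore set the difference between groups only against the spread of these samples, and that spread may be technical. The labels also do not give the part of the embryo, the type of null allele or the litter.

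Most histone mRNA is made during S phase, when the DNA is copied and new nucleosomes are built. Replication-dependent histone mRNAs are unusual in that they mostly end in a short stem-loop instead of a poly(A) tail. The stem-loop is bound by SLBP, and the mRNA is cut just after it by a complex that includes the U7 small nuclear RNA and its proteins Lsm10 and Lsm11. Some of these genes can also be read through to a polyadenylation site, mostly in cells that have left the cell cycle. Their replacement counterparts, such as H3f3a, H3f3b, H2afz and H1f0, are spliced or polyadenylated like other mRNAs and are made outside S phase as well.

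The stem-loop was read from the transcript models, on the sense strand, as a perfect hairpin of 16 bases with a 6-base stem and a 4-base loop. The hairpin that most of the 70 genes share is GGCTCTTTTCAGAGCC, in 25 of them. Allowing up to 4 bases to differ from it, a limit set after the hairpins were seen, a stem-loop was present in 45 of the 70 genes. Of the 21901 protein-coding genes of the annotation, 112 held one in a coding transcript, which is 0.511%. Of the 25 histone genes without it, 18 have a model of 500 bases or less, and a missing match says only that these letters are not in the model. The highest-level gene of each histone type that carried the stem-loop is printed here. Hist3h2a was added because it lies in the same cluster as Hist3h2ba, and Hist1h4b to show another H4 stem. Sequences are from GENCODE M21 transcripts on GRCm38 (mm10), 5′ to 3′ on the strand of the gene, with the hairpin in capitals and 5 bases on each side.
Hist1h1c, chr13:23739507-23739532, plus strand: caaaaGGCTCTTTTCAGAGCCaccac
Hist1h2ag, chr13:22042478-22042503, minus strand: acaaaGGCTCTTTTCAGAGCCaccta
Hist3h2a, chr11:58955167-58955192, plus strand: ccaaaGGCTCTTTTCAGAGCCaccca
Hist3h2ba, chr11:58949344-58949369, plus strand: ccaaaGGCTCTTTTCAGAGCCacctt
Hist1h3c, chr13:23745042-23745067, minus strand: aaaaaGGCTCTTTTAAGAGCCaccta
Hist1h4i, chr13:22040961-22040986, minus strand: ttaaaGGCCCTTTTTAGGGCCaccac
Hist1h4b, chr13:23757361-23757386, plus strand: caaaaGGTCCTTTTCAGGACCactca

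The stem split by histone type. The sequence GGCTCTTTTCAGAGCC was carried by 25 genes, of which 3 encode H1, 10 H2A, 7 H2B and 5 H3. None of the 12 H4 genes with a stem-loop had it. In H4 genes the stem was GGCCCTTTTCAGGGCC in 7, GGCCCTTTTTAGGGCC in 2, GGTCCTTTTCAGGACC in 2 and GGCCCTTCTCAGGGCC in 1. The 33 stem-loops of the other types all opened with GGCTC.

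The histone genes were a small part of the RNA measured. Levels are in TPM, a relative unit divided by the length of the transcript model. Levels of different genes are therefore per length, and depend on how well the model fits the RNA. Summed over the 70 genes, the level in wild type replicates 1 to 3 was 601.9, 587.2 and 684.5 TPM. In Tmem216-/- replicates 1 to 3 it was 593.1, 657.6 and 570.6 TPM. The mutant values lay inside or just below the wild type range, with means of 624.6 ± 52.4 and 607.1 ± 45.2 TPM (SD, n = 3 each). By type, the mean over the 6 samples was 232.7 TPM for H2B, 188.9 TPM for H2A, 94.6 TPM for H4, 82.5 TPM for H3 and 17.1 TPM for H1. The order of H2B and H2A was not fixed across samples, since wild type replicate 2 had more H2A (202.3 TPM) than H2B (182.6 TPM). H4 exceeded H3 in each of the 6 samples, and H1 was lowest in each.

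**Figure D1:**
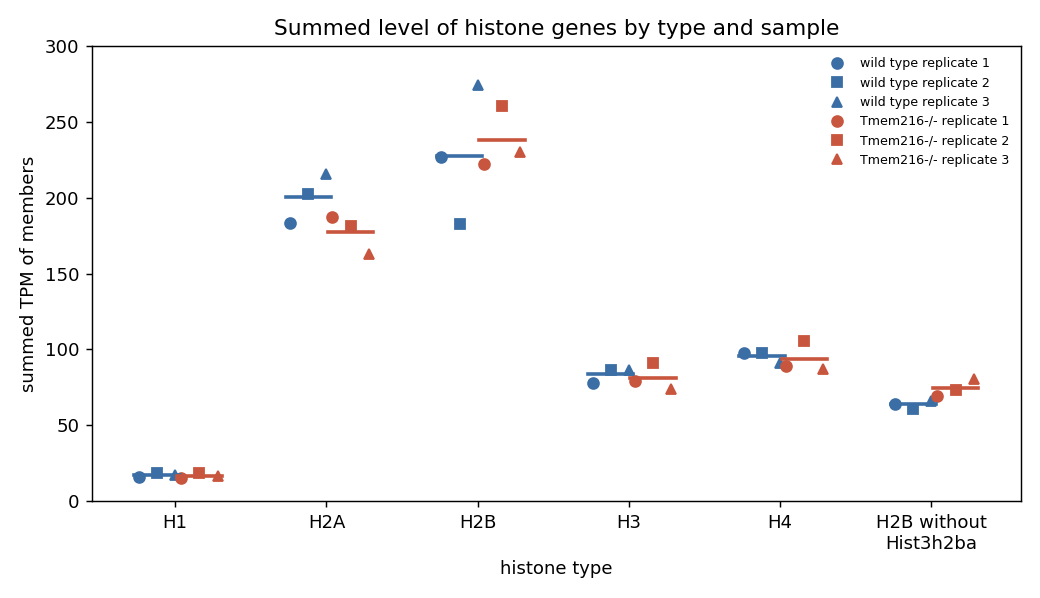
Summed TPM of the histone genes of each type (y axis, TPM) in each sample, with wild type in blue and Tmem216-/- in red. Horizontal bars are group means, the shape gives the replicate, and the last column repeats H2B without Hist3h2ba, the highest single gene. The 2 genotypes overlap in each of the 5 types, and do not overlap in H2B once Hist3h2ba is left out; they overlap again without Hist1h2bq and Hist1h2br.

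A few genes held most of the level. The 5 highest genes (Hist3h2ba, Hist1h4i, Hist1h2ag, Hist3h2a and Hist1h3c) held 52.2% of the summed level, and the 10 highest held 65.2%. Of the 70 genes, 16 had a mean of 10 TPM or more, 40 lay from 1 to under 10 TPM, and 14 lay under 1 TPM. Hist1h2aa, Hist1h2ao and Hist1h2ba were listed at 0 in all 6 samples, while 56 genes were above 0 in every sample. Of the 56 genes named Hist1, 55 lie within chr13:21715763-23934851 (GRCm38), and the processed pseudogene Hist1h2al lies 27.3 Mb further along the chromosome. There are 10 genes of Hist2 on chromosome 3, 3 of Hist3 on chromosome 11 and Hist4h4 alone on chromosome 6. Hist1h2aj, Hist1h2al and Hist3h2bb-ps are the 3 of the 70 annotated as pseudogenes. The 3 genes of the Hist3 cluster held 31.8% of the summed level, and the 56 named Hist1 held 61.0%.

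Among H2B genes, Hist3h2ba stood far above the rest. It was at 162.3, 121.5 and 207.6 TPM in wild type replicates 1 to 3 and at 153.3, 187.6 and 149.5 TPM in Tmem216-/- replicates 1 to 3. Wild type replicate 3 was highest and wild type replicate 2 lowest, so the mutant samples fell within the wild type range. Its mean was 10.996-fold that of the next H2B gene, Hist1h2bc, and 3.02-fold that of the next histone gene of any type, Hist1h4i. Hist1h2bc, an H2B gene of the main cluster, was at 15.4, 13.4 and 15.1 TPM in the wild type samples and 13.7, 15.6 and 16.1 TPM in Tmem216-/-. The groups overlapped, with an SD of 1.08 and 1.26 TPM. Hist1h2bj, the third H2B gene by level, ranged from 5.03 to 12.9 TPM in the wild type samples and from 9.18 to 13.7 TPM in Tmem216-/-.

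The leading H2A genes came from both the main cluster and the Hist3 cluster. Hist1h2ag was at 35.9, 47.9 and 52.0 TPM in the wild type samples and 47.0, 47.7 and 29.7 TPM in Tmem216-/-, with the lowest value in Tmem216-/- replicate 3. Hist3h2a, which lies in the same cluster as Hist3h2ba, was at 32.5, 23.5 and 39.7 TPM in the wild type samples and 24.8, 34.2 and 31.5 TPM in Tmem216-/-. Its highest and lowest samples were the same as those of Hist3h2ba. Hist1h2ad was at 19.5, 26.5 and 16.7 TPM in the wild type samples and 26.8, 16.9 and 22.3 TPM in Tmem216-/-, with overlapping groups.

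Hist3h2a and Hist3h2ba were highest in wild type replicate 3 and lowest in wild type replicate 2, as was the sum of 12 markers of postmitotic neurons. That sum was 1622, 1242 and 2250 TPM in the wild type samples and 1537, 1798 and 1617 TPM in Tmem216-/-. Tubb3, a neuronal tubulin, made up much of it, with a mean of 787.6 of 1678 TPM. Single markers ran in other orders: 6 of the 12 were highest in wild type replicate 3, Dcx was highest in Tmem216-/- replicate 2, and Map2 was higher in each Tmem216-/- sample than in each wild type sample. Of all genes tested, 35.4% were highest in wild type replicate 3 and 25.9% lowest in wild type replicate 2. The likeness was noticed after the values were seen, and the part of neuron content in these levels was not tested. In whole-tissue RNA, fewer cells of a type and less RNA per cell cannot be told apart.

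The leading H3 and H4 genes overlapped between the genotypes. Hist1h4i, the highest H4 gene, was at 59.0, 58.4 and 53.6 TPM in the wild type samples and 46.3, 55.4 and 52.7 TPM in Tmem216-/-. They overlapped because Tmem216-/- replicate 2 exceeded wild type replicate 3. Hist1h4b ranged from 6.99 to 13.6 TPM in the wild type samples and from 7.51 to 11.7 TPM in Tmem216-/-, and Hist1h4n from 3.06 to 10.4 TPM and from 4.54 to 6.01 TPM. Hist1h3c was at 26.5, 29.0 and 33.4 TPM in the wild type samples and 32.3, 30.3 and 23.2 TPM in Tmem216-/-. Hist1h3d ranged from 12.2 to 16.9 TPM in the wild type samples and from 12.3 to 16.01 TPM in Tmem216-/-, and Hist1h3h from 6.41 to 8.63 TPM and from 4.91 to 10.9 TPM. The mutant range of Hist1h3h enclosed the wild type range.

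Among the 6 replication-dependent genes for linker histone H1, Hist1h1c held 77.6% of the summed level. It was at 14.2, 13.4 and 14.4 TPM in the wild type samples and 12.2, 13.1 and 12.7 TPM in Tmem216-/-. Each mutant sample lay below each wild type sample, by a small step. Hist1h1a was at 0.53, 1.92 and 1.64 TPM in the wild type samples and 1.42, 2.00 and 1.87 TPM in Tmem216-/-, and Hist1h1b ranged from 0.35 to 1.67 TPM and from 0.85 to 1.55 TPM. Hist1h1t, the testis form of H1, was above 0 in 3 of the 6 samples.

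**Figure D2:**
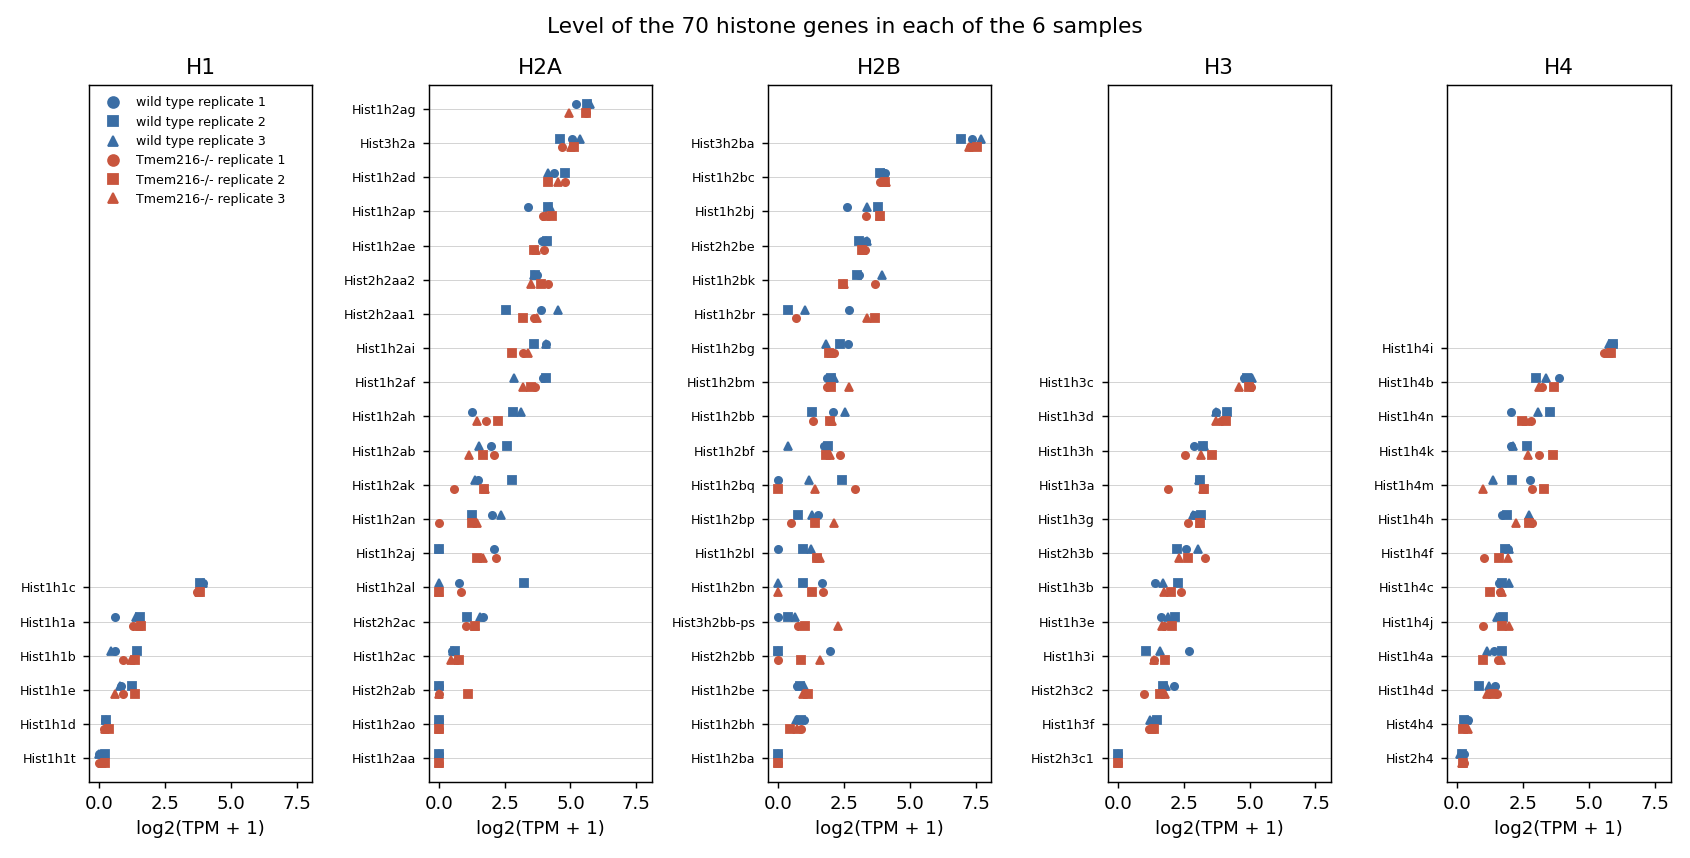
Level of each of the 70 histone genes in each sample (x axis, log2(TPM + 1)), in 1 panel per histone type, with genes ordered by mean level. Blue symbols are wild type and red symbols Tmem216-/-, the shape gives the replicate, and Hist3h2ba lies apart from the other H2B genes.

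The genotypes were compared in a fit across all genes with at least 1 TPM in at least 3 of the 6 samples. Of the 70 histone genes, 54 passed that filter (3 H1, 15 H2A, 14 H2B, 11 H3 and 11 H4). Fold changes are on the log2(TPM + 1) scale, Tmem216-/- over wild type, which understates changes of low genes. Tmem216 itself was at 30.97, 30.7 and 17.4 TPM in the samples labelled wild type and at 2.25, 0.51 and 1.39 TPM in those labelled Tmem216-/-. That is a log2 fold change of -3.55 ± 0.34 (SE, n = 3 each; limma adjusted p = 0.0266). It lost the call with a pseudocount of 0.1, with no filter, with a covariate for sex, and in 5 of the 6 fits that left out 1 sample.

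None of the 54 histone genes changed at an adjusted p under 0.05 in limma, where 17 of 16411 genes did (0.104%; 0.0975% higher and 0.00609% lower). The smallest adjusted p of a histone gene was 0.747. At an unadjusted p under 0.05 there were 2 histone genes of 54, against 4.46% of all genes. The median log2 fold change of the 54 genes was -0.05, with a range from -0.98 to 1.22, and the median of all genes tested was -0.01. Of the 54, 24 lay above 0 and 30 below, while 48.3% of all genes lay above 0. By type, 10 of 14 H2B genes lay above 0 with a median of 0.14, and 11 of 15 H2A genes lay below 0 with a median of -0.16. For H3 and H4, 7 of 11 genes each lay below 0, with medians of -0.06 and -0.07. Of the 3 H1 genes, Hist1h1a (0.27) and Hist1h1b (0.33) lay above 0 and Hist1h1c (-0.14) below.

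**Figure D3:**
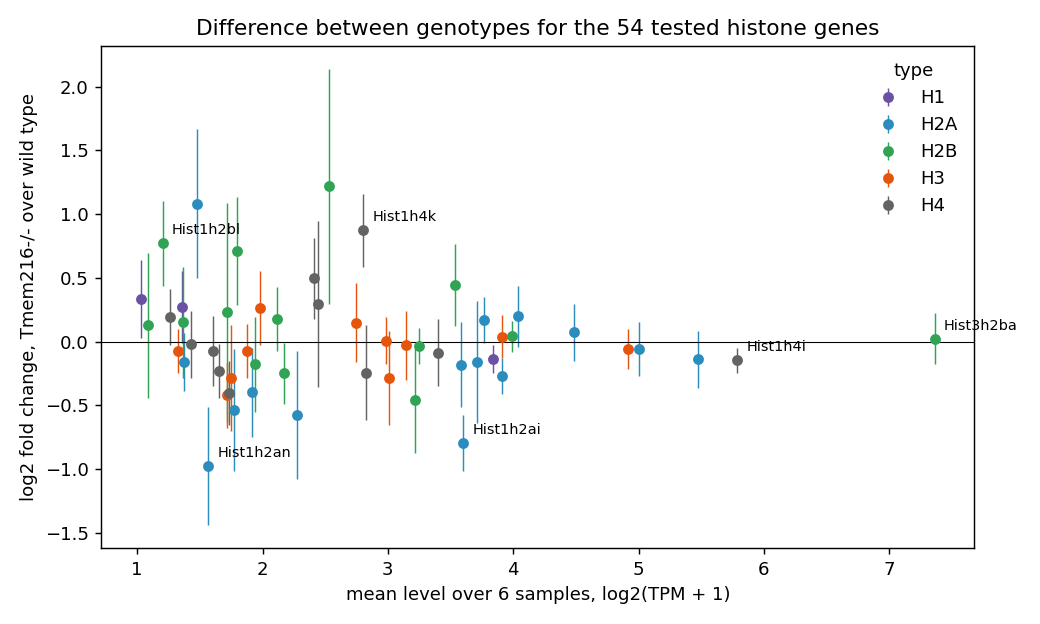
Log2 fold change of Tmem216-/- over wild type (y axis) with its standard error as a vertical line, against the mean level over the 6 samples (x axis, log2(TPM + 1)), for the 54 histone genes tested, coloured by type. The genes above 4 on the x axis lie close to 0, and those with lower levels spread from -0.98 to 1.22 with wider errors.

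The highest genes of each type had log2 fold changes between -0.15 and 0.02. The log2 fold change was 0.02 ± 0.20 (SE) for Hist3h2ba, -0.15 ± 0.10 for Hist1h4i, -0.14 ± 0.22 for Hist1h2ag and -0.06 ± 0.16 for Hist1h3c. It was -0.14 ± 0.11 for Hist1h1c and -0.06 ± 0.21 for Hist3h2a. These 6 genes had adjusted p-values from 0.983 to 0.997. A p that misses the threshold does not show that the levels are equal. Over the 54 genes the median standard error was 0.27, against 0.17 for all genes tested.

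The levels of 4 histone genes of 54 did not overlap between the genotypes, against 9.57% of all genes tested. Of the 4, 2 were higher, against 4.75% of all genes, and 2 were lower, against 4.83%. Beside Hist1h1c, they were Hist1h2ai, which was lower, and Hist1h4k and Hist1h2bl, which were higher. Hist1h2ai, an H2A gene, was at 15.98, 11.2 and 15.9 TPM in the wild type samples and 8.21, 5.89 and 9.60 TPM in Tmem216-/-. All 3 mutant values lay below the lowest wild type value, with a log2 fold change of -0.79 ± 0.22 (SE; limma adjusted p = 0.747). Hist1h4k, an H4 gene, was at 3.09, 5.25 and 3.30 TPM in the wild type samples and 7.49, 11.3 and 5.48 TPM in Tmem216-/-. The step between the groups was narrow, from 5.25 to 5.48 TPM, and the log2 fold change was 0.87 ± 0.29 (SE; limma adjusted p = 0.978). Hist1h2bl, an H2B gene, was listed at 0 in wild type replicate 1 and was at 0.91 and 1.39 TPM in the other wild type samples. It was at 1.72, 1.76 and 2.02 TPM in Tmem216-/-, with a log2 fold change of 0.77 ± 0.33 (SE; limma adjusted p = 0.983). Hist1h2an, an H2A gene, was at 3.04, 1.38 and 4.21 TPM in the wild type samples and was listed at 0 in Tmem216-/- replicate 1, with 1.40 and 1.73 TPM in the others. Its groups overlapped, and its log2 fold change was -0.98 ± 0.46 (SE; limma adjusted p = 0.983).

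The summed H2B level depended on which genes were counted. Without Hist3h2ba, the other 18 H2B genes summed to 64.3, 61.0 and 66.3 TPM in the wild type samples and to 69.0, 73.0 and 80.8 TPM in Tmem216-/-. The groups did not overlap, with means of 63.9 ± 2.68 and 74.3 ± 6.00 TPM (SD, n = 3 each). Without the near-identical copies Hist1h2bq and Hist1h2br as well, the remaining 16 genes summed to 58.8, 56.3 and 64.1 TPM in the wild type samples and to 61.9, 61.2 and 69.7 TPM in Tmem216-/-, and the groups overlapped. These sums were chosen after the values were seen and were not tested. The summed H2A level went the other way, at 183.6, 202.3 and 215.6 TPM in the wild type samples and 187.5, 181.4 and 162.7 TPM in Tmem216-/-, with overlapping groups.

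Histone genes varied more between replicates than all genes tested, also within a broad band of levels. The median within-group SD was 0.37 on the log2(TPM + 1) scale for the 54 genes and 0.21 for all genes tested. Among genes with a mean of 1 to under 20 TPM it was 0.40 for 48 histone genes and 0.26 for 9171 genes in all. Level within that band and model length were not matched, and their part was not tested. Over all genes tested the median level was 14.99 TPM, and over the 54 histone genes 4.38 TPM. Their coding sequences are close copies of each other, which bears on how reads are assigned, and the part of this in the spread was not tested. Of the 70 genes, 66 shared at least 1 window of 50 bases with a transcript of another gene, and the median gene shared 49.6% of its windows.

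Levels of near-identical copies could trade between samples, most plainly in 1 pair. Hist1h2bq and Hist1h2br, a pair of H2B genes chosen here after their values were seen, share 100% and 99.8% of their windows. Hist1h2br was at 5.47, 0.31 and 1.01 TPM in the wild type samples and 0.60, 11.8 and 9.46 TPM in Tmem216-/-. Hist1h2bq was at 0, 4.41 and 1.24 TPM in the wild type samples and 6.46, 0 and 1.62 TPM in Tmem216-/-. In replicates 1 and 2 of each genotype, 1 copy held nearly all of the pair's level and the other was under 1 TPM. The pair summed to 5.47, 4.72 and 2.25 TPM in the wild type samples and to 7.06, 11.8 and 11.1 TPM in Tmem216-/-, so the sums did not overlap. The within-group SD fell from 1.34 for Hist1h2bq and 1.44 for Hist1h2br to 0.45 for their sum, on the log2(TPM + 1) scale. Values of each copy alone are therefore uncertain, and the largest log2 fold change of any histone gene, 1.22 ± 0.92 (SE; limma adjusted p = 0.983), belonged to Hist1h2br. Another close pair, the H2A genes Hist2h2aa1 and Hist2h2aa2, did not trade in this way. Hist2h2aa2 was at 11.3 to 12.3 TPM in the wild type samples while Hist2h2aa1 went from 4.89 to 22.2 TPM, and the SD of their sum (0.38) exceeded that of Hist2h2aa2 (0.23). Hist1h2ao, listed at 0 throughout, shares 93.5% of its windows with Hist1h2ap, an H2A gene at 9.41 to 18.5 TPM. The H4 genes Hist1h4m and Hist1h4n form another such pair, and their sum was at 10.5 TPM in each group (± 2.73 in wild type and ± 3.95 in Tmem216-/-, SD, n = 3 each). Their within-group SD was 1.01 and 0.56 on the log2(TPM + 1) scale, and 0.46 for the sum. For the H2A genes Hist1h2ad and Hist1h2ah it was 0.32 and 0.77, and 0.28 for the sum. Hist1h2ai, the gene with the smallest p, shares 90.1% of its windows with other genes.

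Transcript models differ in how far they run past the stem-loop. In 22 genes the model ended within 100 bases after it, and these had a median level of 6.50 TPM, with a range from 0 to 43.3 TPM. In 23 genes the model ran further, and these had a median of 1.69 TPM and a range from 0.0017 to 163.6 TPM. The highest gene, Hist3h2ba, has 169 bases after its stem-loop, and Hist1h4i has 330. Both of them, and Hist1h1c and Hist3h2a, carry the polyadenylation hexamer AATAAA or ATTAAA within the last 40 bases, whereas Hist1h2ag and Hist1h3c do not. In all, 17 genes carried a hexamer there, with a median level of 2.29 TPM, and 53 did not, with a median of 2.68 TPM. Because TPM divides by the length of the model, a model that runs past the true end of most molecules gives a lower value. Where the molecules end in these samples is not known, and the part of model length in these levels was not tested. Whether the libraries were made from poly(A)-selected RNA is not given in the sources used here, and TPM describes the RNA in the library.

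**Figure D4:**
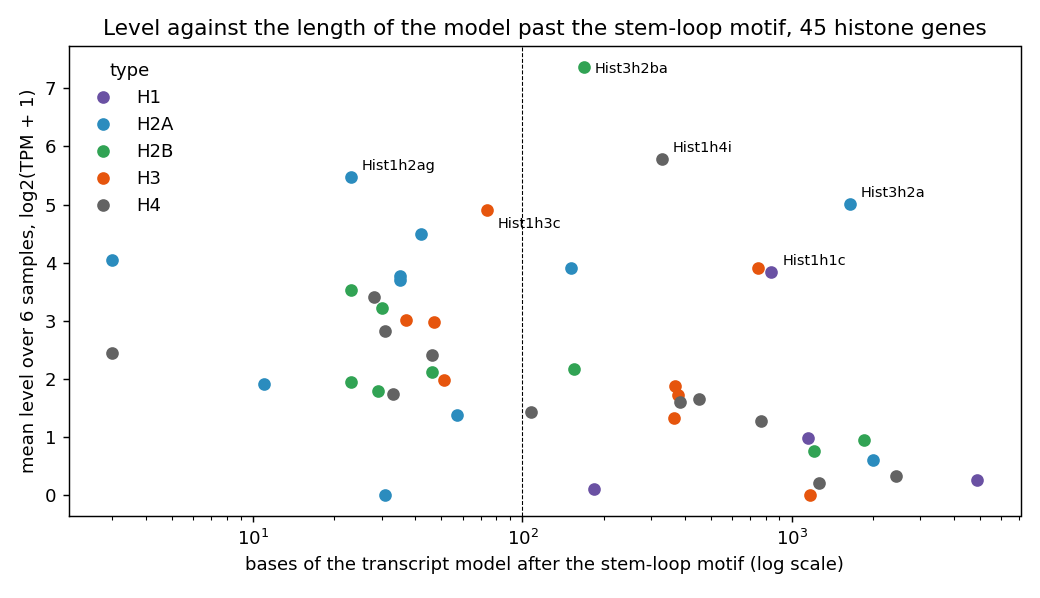
Mean level over the 6 samples (y axis, log2(TPM + 1)) against the number of bases of the transcript model after the stem-loop (x axis, log scale), for the 45 histone genes with a stem-loop, coloured by type. The dashed line marks 100 bases; Hist3h2ba, Hist1h4i, Hist3h2a and Hist1h1c lie to its right, and Hist1h2ag and Hist1h3c to its left.

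Most H2A and H2B genes are arranged head to head and share the stretch between their start sites. There were 14 such pairs, with start sites 173 to 306 bases apart (median 247). The H2A gene had the higher mean level in 8 pairs and the H2B gene in 5, and both genes of the pair Hist1h2ba and Hist1h2aa were listed at 0. Hist1h2ag was at 43.3 TPM and its partner Hist1h2bj at 10.6 TPM. Hist1h2bc was at 14.9 TPM and its partner Hist1h2ac at 0.51 TPM. Hist1h2bl and Hist1h2ai, with log2 fold changes of 0.77 and -0.79 that did not pass the test, are partners with start sites 279 bases apart.

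RefSeq promoter windows, 250 bases before to 50 bases after the start site on GRCm38.p6, were matched for 62 of the 70 genes. Motifs were searched on both strands. CCAAT was present in 85.5% of them, against 37.4% of the 32851 promoters in the table. TATAAA was present in 56.5%, against 13.6%. The octamer ATTTGCAT was present in 14 histone promoters (22.6%), against 1.74% of all, and those were 7 H2A and 7 H2B genes. These counts are of genes, not of separate sites. Windows of head-to-head partners can overlap, so a site can count for both genes. The octamer of Hist1h2ae and Hist1h2bg is such a shared site. H4 differed from the other types: CCAAT was present in 3 of 12 H4 promoters and in all 50 of the others, and GGGCGG in 9 of 12 H4 promoters and 15 of the 50 others. No 2 of these motifs contain each other, and a match is a description, not a binding site.

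Windows are printed for the highest histone gene, for the highest H4 gene, and for Hist1h2ai, whose window also covers most of that of Hist1h2bl. They run 5′ to 3′ on the strand of the gene, with matches to the octamer, to CCAAT and to the TATA motif in capitals on either strand. Hist3h2ba has 4 CCAAT and 2 TATAAA matches, Hist1h2ai has 4 CCAAT matches and no TATAAA, and Hist1h4i has 1 TATAAA match and no CCAAT.
Hist3h2ba, chr11:58948661-58948960, plus strand: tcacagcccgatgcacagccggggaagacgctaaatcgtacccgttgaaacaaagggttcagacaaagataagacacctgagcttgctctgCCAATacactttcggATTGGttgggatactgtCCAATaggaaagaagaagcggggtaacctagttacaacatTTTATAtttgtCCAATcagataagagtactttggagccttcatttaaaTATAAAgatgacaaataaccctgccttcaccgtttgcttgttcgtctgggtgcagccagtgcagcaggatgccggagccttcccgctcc
Hist1h2ai, chr13:21716162-21716461, plus strand: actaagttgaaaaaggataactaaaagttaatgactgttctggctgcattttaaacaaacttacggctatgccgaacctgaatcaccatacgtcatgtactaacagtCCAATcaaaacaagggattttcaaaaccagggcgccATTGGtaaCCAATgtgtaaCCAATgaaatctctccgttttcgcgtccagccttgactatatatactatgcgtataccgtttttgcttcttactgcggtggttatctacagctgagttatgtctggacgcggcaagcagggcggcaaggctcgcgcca
Hist1h4i, chr13:22041313-22041612, minus strand: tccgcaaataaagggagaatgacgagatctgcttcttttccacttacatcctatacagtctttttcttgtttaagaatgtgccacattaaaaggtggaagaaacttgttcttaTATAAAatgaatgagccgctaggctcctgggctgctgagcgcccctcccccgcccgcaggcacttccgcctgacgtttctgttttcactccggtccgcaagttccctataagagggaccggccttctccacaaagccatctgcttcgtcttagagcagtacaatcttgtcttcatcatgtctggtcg

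Replacement histones had far higher TPM in these libraries than the replication-dependent genes. Replication-dependent mRNAs mostly lack a poly(A) tail, and whether the libraries were poly(A)-selected is not given. The part of such selection in the ratios below was not tested. The 11 replacement and variant genes summed to a mean of 6260 TPM, 10.2-fold the sum of the 70. H3f3a, a gene for H3.3, had a mean of 1730 TPM, 20.98-fold the summed level of the H3 genes. H2afz, the gene for H2A.Z, had a mean of 1308 TPM, 6.93-fold that of the H2A genes. H1f0, the H1 of cells that stop dividing, was at 410.9 TPM, 24.0-fold that of the H1 genes, and is named here after its value was seen. None of the 11 changed in limma, and the levels of each overlapped between the genotypes. The log2 fold change was 0.03 for H3f3a, 0.01 for H2afz and -0.13 for Cenpa, the centromeric H3.

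The genes that process and break down histone mRNA did not pass the test either. Of 21 tested, 0 were called, 8 lay above 0 and 13 below, with a median of -0.03. Slbp, the stem-loop binding protein, was at 132.7, 142.1 and 103.3 TPM in the wild type samples and 121.9, 113.1 and 121.1 TPM in Tmem216-/- (log2 fold change -0.07). Srrt, a cap-bound factor, had the smallest p, with a log2 fold change of -0.17 ± 0.09 (SE; limma adjusted p = 0.983). Lsm11 was the 1 gene of the list whose levels did not overlap, at 9.30 to 12.7 TPM in the wild type samples and 8.91 to 9.28 TPM in Tmem216-/-, and 4.83% of all genes tested were lower without overlap.

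Of 22 histone chaperones, which carry histones to DNA, 0 were called and 11 lay on each side of 0. Levels of 3, among them Daxx, were lower without overlap, against 4.83% of all genes tested. Another 1 was higher without overlap, against 4.75%. Daxx, a chaperone of H3.3, was at 41.3, 50.9 and 63.4 TPM in the wild type samples and 40.6, 39.4 and 38.9 TPM in Tmem216-/- (log2 fold change -0.36, limma adjusted p = 0.983). Npm1 ranged from 537.3 to 1562 TPM in the wild type samples and from 1059 to 1132 TPM in Tmem216-/-, and Nap1l1 had a log2 fold change of 0.18.

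Genes of DNA replication, which act in the same phase of the cycle, had no call. Of 32 genes of DNA replication and the G1/S step, 24 lay below 0 and 8 above, with a median of -0.06, and 0 were called. Levels of 5 of the 32 did not overlap, all lower, against 4.83% of all genes tested that were lower without overlap. Fen1, the flap endonuclease, was at 65.4, 66.8 and 63.1 TPM in the wild type samples and 53.96, 51.7 and 54.3 TPM in Tmem216-/- (log2 fold change -0.28 ± 0.08, SE; limma adjusted p = 0.746). Mcm7, a subunit of the replicative helicase, had a log2 fold change of -0.11, and Pcna, the sliding clamp, -0.03. Of 20 genes of G2/M and mitosis, 15 lay below 0 with a median of -0.07, and 0 were called. Among the 15 were Aurka (-0.20), Ube2c (-0.09) and Cdk1 (-0.05). Levels of 3 of the 20 did not overlap, all lower, against the same 4.83%. At an unadjusted limma p under 0.05 there were 3 of the 32 replication genes and 0 of the 20, against 4.46% of all genes tested.

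The summed level of other RNAs that carry no poly(A) tail was highest in wild type replicate 3. Of 14 in the list, 5 were at 0 in all samples and 7 were tested. All 7 lay below 0 with a median of -0.32, 0 were called, and Rmrp and Rn7sk were lower without overlap, against 4.83% of all genes tested. The 14 summed to 199.6, 235.5 and 535.8 TPM in the wild type samples and to 181.4, 155.4 and 220.6 TPM in Tmem216-/-. Wild type replicate 3 was 2.70-fold the mean of the other 5 samples for these RNAs and 1.14-fold for the summed histone genes. Rmrp, the RNA of an endoribonuclease, had a log2 fold change of -1.51 ± 0.49 (SE; limma adjusted p = 0.942). Rn7s1 and Rn7s2, copies of the signal recognition particle RNA, are listed with equal values and had a log2 fold change of -0.64. Both enter the counts, sums and ratio above, so the same values are counted more than once there. Of the 54 tested histone genes, 24.1% were highest in wild type replicate 3, against 35.4% of all genes tested. Fits that left out this sample were run, and the last section gives the ratio of the summed histone level without it. Why its values were high was not tested.

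**Figure D5:**
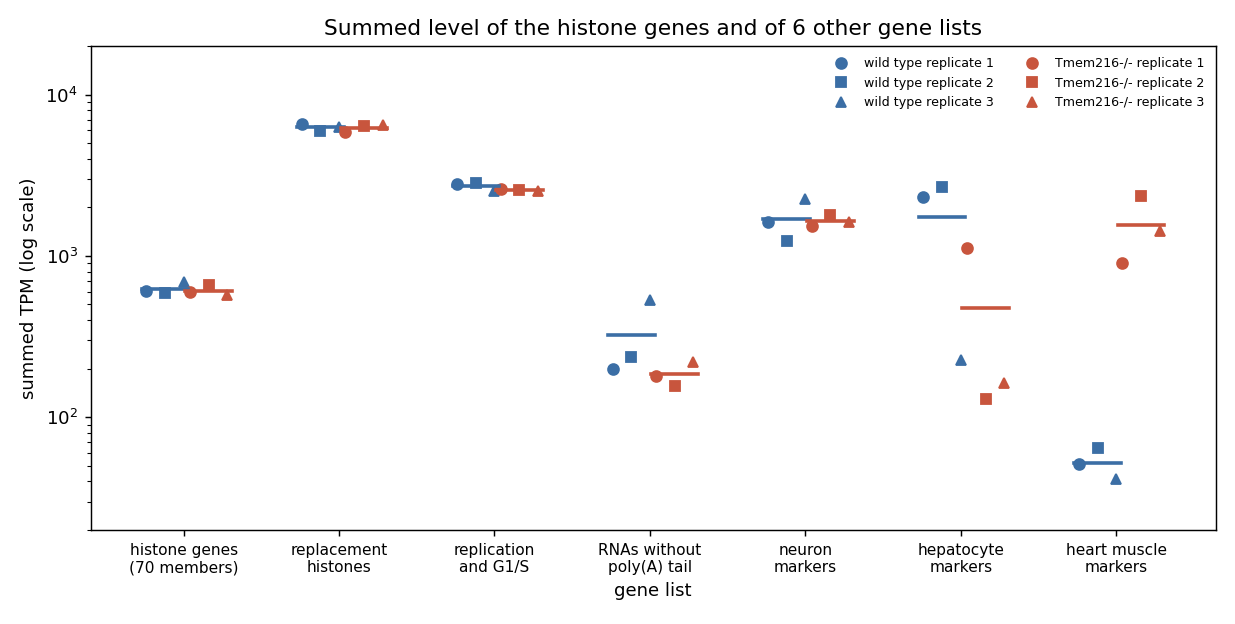
Summed TPM (y axis, log scale) of the 70 histone genes and of 6 other gene lists in each sample, with wild type in blue, Tmem216-/- in red, the replicate as the shape and group means as bars. The histone genes span 570.6 to 684.5 TPM, while RNAs without a tail stand out in wild type replicate 3 and heart muscle markers are higher in each Tmem216-/- sample.

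Markers of cell types also differed between the samples. All 13 heart muscle markers were called higher in Tmem216-/- in limma, against 0.0975% of all genes tested. Their summed levels were 41.1 to 64.3 TPM in the wild type samples and 897.2 to 2358 TPM in Tmem216-/-. This list was chosen with earlier results of these data known, so its calls support nothing here. The 10 hepatocyte markers summed to 2325, 2675 and 225.0 TPM in wild type replicates 1 to 3. In Tmem216-/- replicates 1 to 3 they summed to 1125, 130.5 and 162.6 TPM, so the groups overlapped. All 10 lay below 0 with a median log2 fold change of -1.86, and 0 of 10 were called. The 13 erythroid markers in the table summed to 36969 to 44313 TPM and 27930 to 56764 TPM, and 0 were called. No marker of these lists was at 0 in all samples. Their part in the histone levels was not tested. Read depth is unknown, since the table holds TPM only.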

How the data were processed

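The authors deposited 1 table of TPM values per gene for 6 samples. Per the labels' protocols, total RNA was extracted with TRIzol and libraries were made with a TruSeq RNA kit. Per the submitters' processing notes, CASAVA 1.8, HISAT2, StringTie, RSEM and mm10 were used; their order, the annotation and the treatment of reads that match several genes are not given in the sources used here. RSEM estimates can split reads between close copies. The authors' TPM values were used as deposited, and 2 columns holding group means were left out.

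Genes with at least 1 TPM in at least 3 of 6 samples were tested on log2(TPM + 1) with limma 3.58.1 (R 4.3.3; lmFit, eBayes with trend, two-sided), with Benjamini-Hochberg adjustment over 16411 genes and a threshold of 0.05. The code was tested on simulated data. With 3 samples a group, an exact permutation test of a single gene cannot go below p = 0.1. Summed levels were described without a test.

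Members were matched by name, and coordinates, models and stem-loops came from GENCODE M21 (70 of 70 matched). Promoters came from RefSeq. Named genes were Tmem216, any histone gene called, the 3 highest per histone type, the 2 of smallest p in each direction, and in each other list the 2 highest and the 1 of smallest p. The histone genes, other lists and tests were chosen with earlier results of these data known; the heart muscle list is among them and supports nothing here. Alternatives covered the pseudocount, filter, scaling, variance model, replicate block, a sex covariate and leaving out each sample.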

Additional observations from a re-analysis of the deposited data

How the results depend on the processing

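No histone gene was called in any of the 17 alternatives of the fit, and the smallest adjusted p of a histone gene over all of them was 0.319 (Hist1h2ai, without wild type replicate 2; 0.747 with all samples). The median log2 fold change and the log2 ratio of the summed level moved by less than the spread between replicates but turned sign: the ratio was 0.030 without wild type replicate 3 and 0.0019 without Tmem216-/- replicate 3 (-0.041 with all), and the median was 0.0048 with no filter (-0.046 as tested). The count of all genes called was 0 with no filter and from 0 to 27 when 1 sample was left out: 0 without wild type replicate 1, 2 without wild type replicate 2, 1 without wild type replicate 3, and 27, 9 and 7 without Tmem216-/- replicates 1, 2 and 3. Tmem216 lost its call at -4.31 (pseudocount of 0.1), -3.55 (no filter) and -3.56 (sex covariate), and ranged from -3.81 to -3.25 when 1 sample was left out; the cause was not tested. Of 36 other named genes, 19 kept their direction throughout. With the sex covariate, the log2 fold change was -0.029 for Hist3h2ba, 0.061 for Hist1h3h and 0.11 for Pcna; with quantile normalization it was -0.0068 for H2afz and 0.0075 for Pcna. Leaving out 1 sample gave ranges that crossed 0 for Hist1h1a -0.013 to 0.453, Hist1h2ag -0.294 to 0.0798, Hist3h2a -0.257 to 0.108, Hist1h2ad -0.0752 to 0.249, Hist3h2ba -0.174 to 0.209, Hist1h2bc -0.016 to 0.107, Hist1h3c -0.149 to 0.0812, Hist1h3d -0.045 to 0.183, Hist1h3h -0.267 to 0.239, and also for Hist1h4b -0.293 to 0.14, Hist1h4n -0.666 to 0.0802, Slbp -0.209 to 0.019, H2afz -0.038 to 0.0827, H3f3a -0.062 to 0.105, Nap1l1 -0.011 to 0.337, Npm1 -0.205 to 0.564 and Pcna -0.256 to 0.0931. Deviations of same-numbered samples correlated at 0.016, -0.093 and 0.10. Wild type replicate 2 correlated best with Tmem216-/- replicate 1 (0.14), and wild type replicate 3 with Tmem216-/- replicate 3. Such low values from 3 samples a group cannot decide whether the replicate numbers pair the samples. With the replicate block, 25 genes and 0 histone genes were called. TPM carries no depth, so counting error is unknown. Sums without Hist3h2ba and the median over genes with under 50% shared windows were added after seeing the data.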
